A study of Mus musculus with 6 samples.

Results

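The heat shock chaperones described here are 10 mouse genes: Hspa1a, Hspa1b, Hspa8, Hspb1, Hspb8, Dnajb1, Dnajb2, Hsph1, Hsp90aa1 and Hspd1. They were chosen by name, with earlier results of these data known. Every probe whose annotated gene symbol was one of these names was kept. This gave 20 probes of 45281 on the array, and 10 of 19057 named genes. All 10 genes were among the 9808 genes tested, which means that the brightest probe of each was detected (detection p under 0.05) on at least 3 of 6 arrays. Of these, Hspa1b was detected on 0 of 3 control arrays and Hspa1a on 1, so both passed this filter through the arrays on which they were high.

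Heat shock proteins bind proteins that are unfolded or not yet folded. Hsp70 proteins bind and release short hydrophobic stretches in a cycle that uses ATP, Hsp40 (J-domain) proteins load clients onto Hsp70, and Hsp110 proteins exchange its nucleotide. Small heat shock proteins hold unfolded proteins without ATP, Hsp90 completes the folding of kinases and receptors, and Hsp60 folds proteins inside mitochondria. Many of these genes are induced by the transcription factor HSF1, which binds promoter repeats called heat shock elements when unfolded proteins accumulate. Hspa8 is the Hsp70 made in unstressed cells, while Hspa1a and Hspa1b are the classical stress-induced forms.

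RNA came from mouse embryonic stem (ES) cells, hybridised to Illumina MouseWG-6 BeadChips. The 3 shChd4 samples had been electroporated with a pHYPER vector expressing a short hairpin RNA against Chd4, the ATPase of the NuRD complex, and the 3 control samples had a control transfection that the labels do not describe further. Both groups grew with 15% foetal bovine serum and LIF on embryonic fibroblasts inactivated with mitomycin C, and both were under puromycin for 48 h, starting 24 h after transfection. The labels give no cell line, strain, or removal of the fibroblasts. They also do not say whether the cultures behind the arrays were separate, and p-values therefore measure only the spread between these arrays, which may be technical. Each group lay on a BeadChip of its own, and the effects of chip and shRNA cannot be told apart. Arrays are numbered here only as names. Between 37.7% and 38.7% of probes were detected on shChd4 arrays and between 34.9% and 35.6% on control arrays.

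The Chd4 transcript went with the labels. Its brightest probe had log2 intensities of 8.06, 7.91 and 8.33 on the shChd4 arrays, against 10.13, 10.13 and 10.17 on the control arrays. Markers of fibroblasts, the feeder cell type, were higher in the shChd4 group. Of 22 listed, 16 were tested, of which 14 rose and 0 fell, and their summed intensity was 11825 to 16066 on shChd4 arrays and 2026 to 3052 on control arrays. Lum, Col1a1, Col6a2 and Pdgfrb were detected on no control array, and Postn, Fap and Col5a2 on no array at all. Of 14 ES cell markers, 9 fell and 0 rose, with sums of 47812 to 54112 on shChd4 arrays and 62203 to 65423 on control arrays. A large part of these sums was Dppa5a, the brightest of the 14. Its mean log2 intensity was 14.82 on shChd4 arrays and 14.85 on control arrays. Of 10 primitive endoderm markers listed, 6 were tested, of which 5 rose and 1 fell. Sox7, among the 5, was detected on no control array. Of 9 trophoblast markers listed, 5 were tested, of which 1 rose and 1 fell. Over all genes tested, 19.9% rose and 18.2% fell (limma adjusted p under 0.05). In such bulk RNA, fewer cells of a type and less RNA per cell cannot be told apart, and the part that the feeder cells have in any change below was not tested.

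Most of the heat shock chaperone genes were higher after Chd4 shRNA. Of the 10 genes, 7 rose and 0 fell past a limma adjusted p under 0.05, adjusted over all genes tested, of which 38.1% changed, 19.9% rose and 18.2% fell. The 7 were Hspa1a, Hspa1b, Hspb8, Dnajb2, Dnajb1, Hspb1 and Hsph1. Because the 10 genes were chosen with earlier results of these data known, their count beside the share of all genes is a description only. The median log2 fold change, shChd4 minus control, was 0.92 over the 10 genes, also with Hspa1b at its bound, and -0.05 over all genes tested. With only genes detected on all 6 arrays, which leaves out Hspa1a and Hspa1b, 5 of 8 rose and 0 fell. Of all 7970 such genes, 17.8% rose. The medians were then 0.64 for the 8 genes and -0.09 for all such genes. On all 3 shChd4 arrays the same 7 genes lay above every control array, an arrangement that 25.0% of genes tested showed (25.3% lay below, 50.3% in either direction), and the groups overlapped for Hspa8, Hsp90aa1 and Hspd1.

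**Figure D1:**
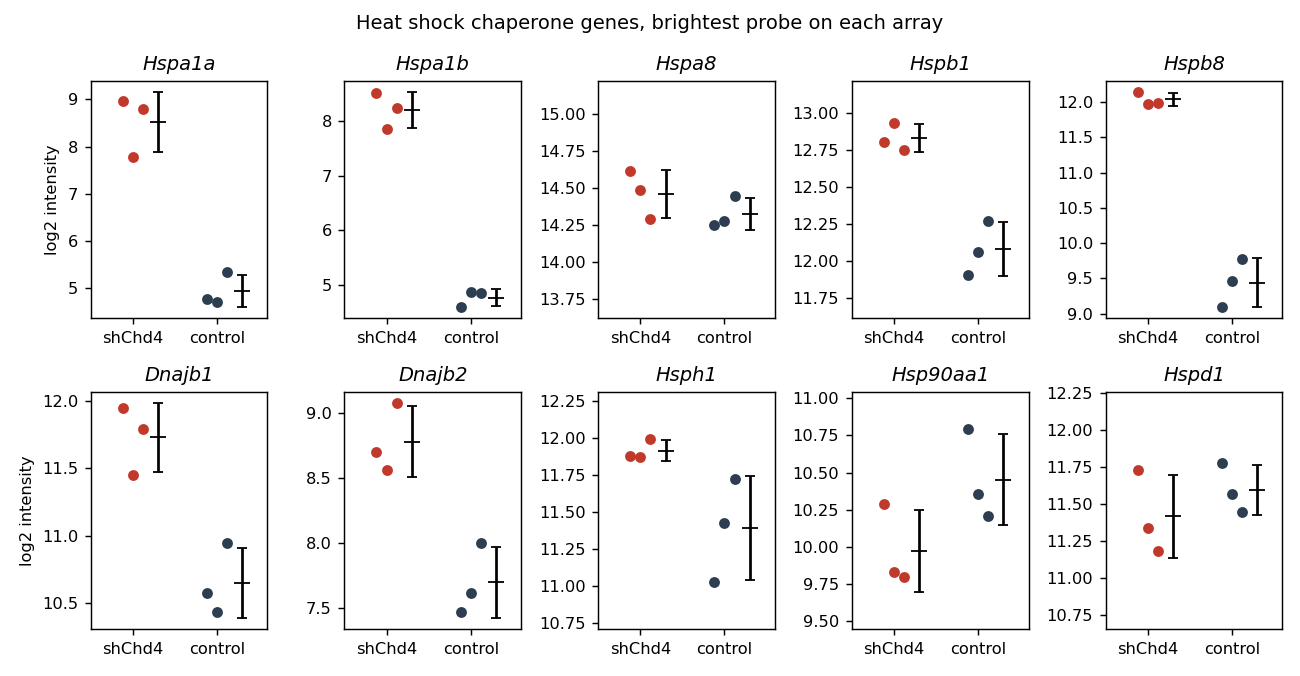
Log2 intensity of the brightest probe of each heat shock chaperone gene on the 3 shChd4 arrays (red) and the 3 control arrays (dark); each panel has its own vertical scale, and bars show the mean and SD. For Hspa1a, Hspa1b, Hspb1, Hspb8, Dnajb1, Dnajb2 and Hsph1 every shChd4 point lies above every control point, while the groups overlap for Hspa8, Hsp90aa1 and Hspd1.

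The stress-induced Hsp70 genes were higher on every shChd4 array and at or near background in controls. Hspa1a had log2 intensities of 8.97, 7.78 and 8.79 on the shChd4 arrays, against 4.77, 4.72 and 5.34 on the control arrays. Its values were high on every shChd4 array, with replicate 2 the lowest of that group, and only 1 of 3 control arrays detected the probe. The fitted log2 fold change was 3.57 ± 0.29 (SE over 3 arrays in each group, limma adjusted p = 7.86e-06). Without shChd4 replicate 2 it was 3.95. These values rest mostly on control signals below detection, so they do not measure the change from a detected control level. The size depended on the background step, and without background correction it was 1.90 (limma adjusted p = 0.000143). The order of the genes turned with that step too: the change of Hspb8, described below, was 2.60 in the main setting and 2.44 without background correction.

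Hspa1b had log2 intensities of 8.50, 7.85 and 8.24 on the shChd4 arrays, against 4.60, 4.87 and 4.86 on the control arrays. All of its control values were below detection, so the change is a bound: Hspa1b was at least 9.10-fold higher in shChd4 cells. This bound sets its shChd4 mean against the lowest signal among detected probes on each control array, or its own signal where that was higher. The limma adjusted p of 1.07e-06 belongs to the fitted change from those undetected control signals, and does not test the bound. The bound also depended on the background step, and was 3.08-fold without background correction and 4.95-fold with an offset of 50. On the raw scanner scale the same probe gave 488, 321 and 386 on shChd4 arrays and 119, 117 and 120 on control arrays.

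Hspa1a and Hspa1b encode nearly the same protein, and their transcripts could not be told apart with certainty by these probes, whose sequences were not used here. Their further probes were uneven. A second Hspa1a probe, detected on 3 shChd4 arrays and 0 control arrays, was at least 7.15-fold higher in shChd4 cells (at least 2.58-fold without background correction). A second Hspa1b probe, detected on the same arrays but dim, was at least 1.41-fold higher (1.11-fold without background correction). The remaining Hspa1a probe was detected on 1 array and is given no change.

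The 300-base promoter windows of this gene pair (RefSeq, GRCm38.p6, from 250 bases before the annotated start to 50 bases into the transcript) are shown because they are nearly identical and share a match to the short form of the heat shock element. The Hspa1a window lies at chr17:34972107-34972406 and the Hspa1b window at chr17:34959189-34959488, both on the minus strand. Capitals mark matches to GAANNTTC or TTCNNGAA, the 2-unit forms of the heat shock element, where N is any base; both are palindromes, so a match on 1 strand is a match on the other.
Hspa1a: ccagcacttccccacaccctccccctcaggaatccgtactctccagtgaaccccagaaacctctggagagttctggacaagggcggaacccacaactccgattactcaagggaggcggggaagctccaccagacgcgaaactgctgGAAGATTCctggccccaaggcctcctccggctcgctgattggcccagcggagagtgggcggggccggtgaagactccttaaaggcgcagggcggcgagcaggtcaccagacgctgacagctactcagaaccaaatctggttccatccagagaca
Hspa1b: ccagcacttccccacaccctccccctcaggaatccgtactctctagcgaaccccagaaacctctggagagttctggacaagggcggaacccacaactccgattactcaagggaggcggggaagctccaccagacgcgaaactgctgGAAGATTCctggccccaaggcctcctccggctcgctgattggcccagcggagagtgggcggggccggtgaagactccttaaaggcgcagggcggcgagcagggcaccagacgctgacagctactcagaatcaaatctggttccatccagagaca
The windows were identical at 296 of 300 positions (98.7%). Counted from 1 at the 5′ end of the window, with the Hspa1a base first, the differences were C44T, T47C, T249G and C276T. Each window held 1 match to GAANNTTC, at the same place, from position -104 to -97 relative to the start. Of 32851 promoter windows of the same length, 15.1% held a match to either form. A match describes these letters and was not tested as a binding site.

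Hspa8, the constitutive Hsp70, stayed near its control level. It had log2 intensities of 14.61, 14.48 and 14.29 on the shChd4 arrays, against 14.25, 14.28 and 14.45 on the control arrays. The groups overlapped, with a log2 fold change of 0.14 (95% interval of the fit -0.21 to 0.48, not adjusted; limma adjusted p = 0.531), which was -0.07 with median scaling in place of quantile normalisation. Its other probes, both detected on all arrays, changed by -0.01 and 0.09. Within each array, the Hspa1b value minus the Hspa8 value was -6.11, -6.64 and -6.05 on shChd4 arrays and -9.65, -9.41 and -9.58 on control arrays. The groups did not overlap, but the control values of Hspa1b were not above background, so the size of the shift between groups was not measured and no test is given for it. Levels of different probes are not comparable, and only the shift between groups is read from these differences.

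Both small heat shock protein genes rose, Hspb8 the more. Hspb8, whose protein works with the co-chaperone Bag3 to deliver damaged proteins to autophagy, had log2 intensities of 12.14, 11.98 and 11.99 on the shChd4 arrays, against 9.09, 9.46 and 9.78 on the control arrays. The shChd4 arrays were close together and the control arrays spread over 0.69. The log2 fold change was 2.60 ± 0.19 (SE; limma adjusted p = 4.00e-06), or 6.04-fold, and a second probe detected on all arrays rose by 2.43 (limma adjusted p over probes = 8.41e-06). On the raw scanner scale the brightest probe read 4458, 3866 and 3634 on shChd4 arrays and 690, 710 and 1027 on control arrays.

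Hspb1, the mouse Hsp25, which also binds actin filaments, had log2 intensities of 12.81, 12.93 and 12.75 on the shChd4 arrays, against 11.91, 12.06 and 12.27 on the control arrays. The groups were apart, and the log2 fold change was 0.75 ± 0.16 (SE; limma adjusted p = 0.00372). A further Hspb1 probe was detected on 0 arrays. Within arrays, Hspb1 minus Hspb8 was 0.66, 0.95 and 0.76 in shChd4 samples and 2.82, 2.60 and 2.50 in control samples. That is a shift of -1.85 (exact permutation test, two-sided, p = 0.1, the smallest that 3 against 3 arrays can give), with no overlap between groups. The same test gave 0.15 after Benjamini-Hochberg adjustment over 3 gene pairs. That adjustment counted Hspa1b minus Hspa8, for which no test is given, and would be higher without that pair.

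The promoter windows of these genes are given because both contain GAANNTTC, in different places. Hspb1 lies on the plus strand at chr5:135887669-135887968 and Hspb8 on the minus strand at chr5:116422815-116423114 (RefSeq, GRCm38.p6), with the same marks in capitals.
Hspb1: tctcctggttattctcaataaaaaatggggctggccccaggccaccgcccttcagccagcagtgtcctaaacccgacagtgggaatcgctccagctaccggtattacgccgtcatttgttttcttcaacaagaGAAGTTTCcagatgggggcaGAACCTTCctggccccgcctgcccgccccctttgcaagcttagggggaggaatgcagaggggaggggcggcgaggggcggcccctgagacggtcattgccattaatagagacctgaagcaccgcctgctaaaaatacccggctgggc
Hspb8: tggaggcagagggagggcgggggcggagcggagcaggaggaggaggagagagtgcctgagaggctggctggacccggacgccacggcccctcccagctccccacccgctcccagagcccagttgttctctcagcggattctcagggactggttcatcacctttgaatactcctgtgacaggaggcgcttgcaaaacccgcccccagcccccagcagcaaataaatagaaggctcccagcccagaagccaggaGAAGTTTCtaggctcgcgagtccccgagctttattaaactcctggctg
Hspb1 held 2 matches upstream of its start, whereas the 1 match of Hspb8 began 2 bases after the start position, within the transcript. Neither window held the 3-unit element, which adds NNGAA to GAANNTTC or NNTTC to TTCNNGAA. These forms are reverse complements of each other and contain the 2-unit forms, and 0.603% of all windows held them on either strand.

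The Hsp40 genes changed by nearly the same amount. Dnajb1, the main stress-induced partner of Hsp70, had log2 intensities of 11.95, 11.45 and 11.79 on the shChd4 arrays, against 10.57, 10.44 and 10.94 on the control arrays. It rose by 1.08 ± 0.19 log2 units (SE; limma adjusted p = 0.00129). Dnajb2, a J-domain protein with ubiquitin-binding motifs, had log2 intensities of 8.71, 8.56 and 9.08 on the shChd4 arrays, against 7.47, 7.62 and 8.00 on the control arrays. Its log2 fold change was 1.08 ± 0.19 (limma adjusted p = 0.00144). For both genes all shChd4 arrays were above all control arrays, and control replicate 3 was the highest of its group. Dnajb1 minus Dnajb2 within arrays shifted by -0.00 (exact permutation test, two-sided, p = 1), with values of 3.25, 2.89 and 2.71 in shChd4 samples and 3.10, 2.82 and 2.94 in control samples. Each gene had 1 probe, and neither of the promoter windows of either gene held a 2-unit heat shock element.

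Hsph1, the Hsp110 nucleotide exchange factor of Hsp70, was the smallest of the 7 rises and lay at the threshold. It had log2 intensities of 11.88, 11.87 and 11.99 on the shChd4 arrays, against 11.03, 11.42 and 11.72 on the control arrays. The shChd4 values were nearly equal, while control replicate 3 came close to them. The log2 fold change was 0.52 ± 0.19 (SE; limma adjusted p = 0.0482). The call was lost without shChd4 replicate 1 (0.0942), shChd4 replicate 2 (0.0803), shChd4 replicate 3 (0.118), control replicate 1 (0.191; log2 fold change 0.33) or control replicate 2 (0.101). Median scaling (0.201; 0.33) and dropping the detection filter (0.0892) also ended it. The adjusted p of Hsph1 ran from 0.0181 to 0.201 over 15 alternatives.

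Hsp90aa1 and Hspd1 did not pass the test on their brightest probes. Hsp90aa1, the inducible cytosolic Hsp90, had log2 intensities of 10.29, 9.83 and 9.79 on the shChd4 arrays, against 10.80, 10.36 and 10.20 on the control arrays. The groups overlapped at 1 shChd4 array, and the log2 fold change was -0.48 (95% interval -0.92 to -0.04, not adjusted; limma adjusted p = 0.0830). It passed without shChd4 replicate 1 (-0.64; 0.0442) and with a background offset of 50 (-0.47; 0.0495). Among its dimmer probes, 1 that was detected everywhere changed by 0.04, and the other, detected on 2 arrays, by -0.23. The constitutive cytosolic gene Hsp90ab1 had no named probe and was not analysed here.

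Hspd1, the mitochondrial Hsp60, had log2 intensities of 11.72, 11.34 and 11.18 on the shChd4 arrays, against 11.78, 11.56 and 11.44 on the control arrays. The log2 fold change was -0.18 (95% interval -0.58 to 0.22, not adjusted; limma adjusted p = 0.468). Its second probe had 10.62, 10.18 and 10.09 on shChd4 arrays and 11.05, 10.81 and 10.74 on control arrays. On that probe Hspd1 fell, by 0.57 on the log2 scale (limma adjusted p over probes = 0.0304), so its probes differed in the call. Over all probes of the 10 genes, 17 of 20 entered a fit across 14610 probes, in which 9 rose, 1 fell and 7 did not pass. In that fit 36.0% of all probes changed, 17.5% rose and 18.5% fell, and Hsph1 missed the threshold (limma adjusted p over probes = 0.0506). The rises included every Hspa1a and Hspa1b probe in the fit. These probes entered it through the shChd4 arrays, being detected on 0 control arrays or, for the brightest Hspa1a probe, on 1. The transcripts of these 2 genes could not be told apart with certainty.

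The Hspd1 window at 1 of its 2 annotated starts, at chr1:55087883-55088182 on the minus strand (RefSeq, GRCm38.p6), is shown because it had the longest run of heat shock units among the 8 genes with a window, in a gene that did not rise on its brightest probe.
Hspd1: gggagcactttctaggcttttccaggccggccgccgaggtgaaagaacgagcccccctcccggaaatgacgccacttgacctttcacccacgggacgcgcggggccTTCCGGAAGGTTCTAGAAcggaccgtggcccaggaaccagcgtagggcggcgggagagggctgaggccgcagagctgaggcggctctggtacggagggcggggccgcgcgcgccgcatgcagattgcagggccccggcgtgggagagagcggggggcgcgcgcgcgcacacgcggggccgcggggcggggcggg
It held 2 overlapping 3-unit elements from position -144 to -127. The Hsph1 windows also held a 3-unit element, after the start. In all, 8 of the 10 genes had a promoter window, and 6 of these 8 held a 2-unit element in at least 1 window: Hspa1a, Hspa1b, Hspb1, Hspb8, Hsph1 and Hspd1. CCAAT, which 37.4% of all windows held on either strand, was present for Hspa1a, Hspa1b, Dnajb1, Hsph1 and Hspd1, and TATAAA (13.6% of windows) for none.

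**Figure D2:**
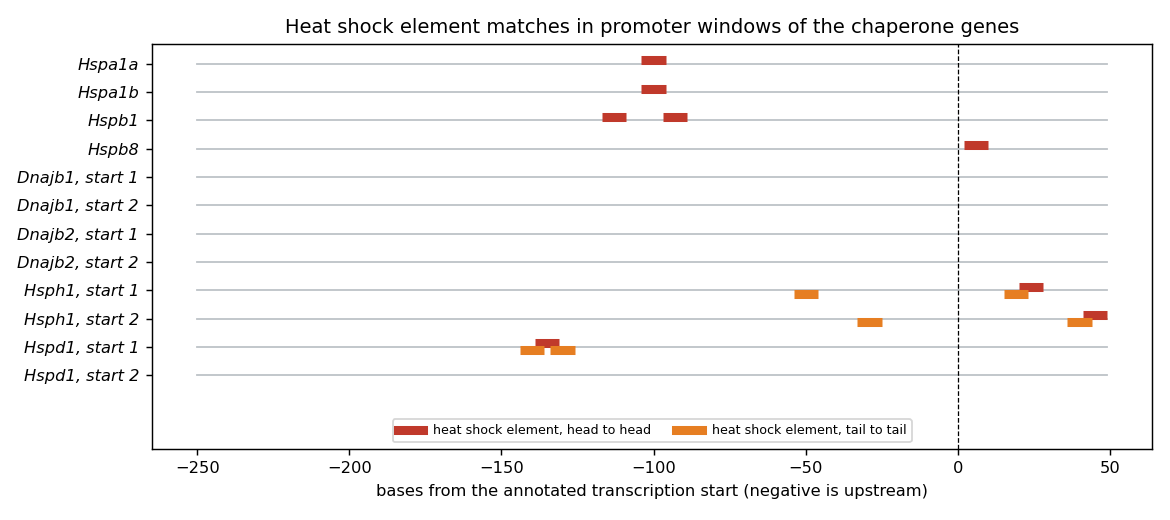
Matches to the 2-unit heat shock elements in the promoter windows of 8 chaperone genes, by distance in bases from the annotated start; red (head to head) is GAANNTTC and orange (tail to tail) TTCNNGAA. Hspa1a and Hspa1b have 1 match at the same place, Hspd1 has an upstream cluster at 1 of its 2 starts, and Dnajb1 and Dnajb2 have none.

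**Figure D3:**
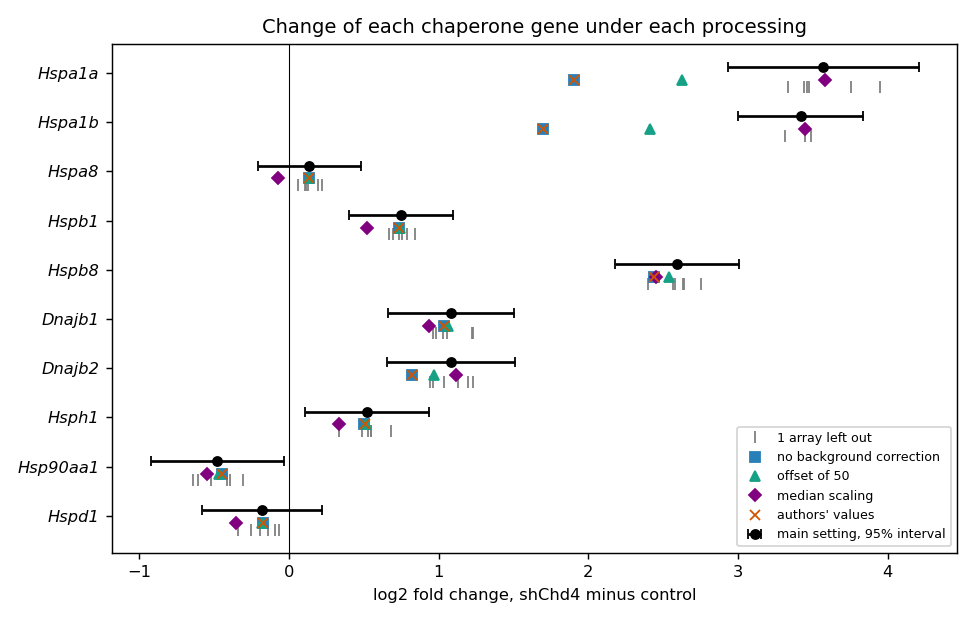
Log2 fold change (shChd4 minus control) of each gene with its 95% interval in the main setting (black), under other processing (coloured) and with 1 array left out (grey ticks). The fitted changes of Hspa1a and Hspa1b shrink to 1.90 and 1.69 without background correction. Hspa8 crosses 0 with median scaling, and the other 7 genes keep their direction in the settings drawn. All control values of Hspa1b were below detection, so its points and interval do not measure a size.

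Across 10 partly overlapping lists of related chaperones, which held 73 tested genes besides the 10, 10 (13.7%) rose and 13 (17.8%) fell. Of all genes tested 19.9% rose and 18.2% fell, so these shares are no higher than the background, and the lists below are given as descriptions with no test of a list. The falls numbered 13 with all arrays, but 4 without control replicate 1, 4 without control replicate 2, 5 without shChd4 replicate 1 and 6 without shChd4 replicate 3. The total of 23 was 14 without control replicate 1 and 13 without control replicate 2, and the rises ran from 9 to 11 with any array left out. The heat shock factor gene Hsf1 had no named probe, and Hsf2 changed by 0.40 ± 0.27 (SE; limma adjusted p = 0.28). Hsbp1, a small protein that binds heat shock factors, rose by 0.85, though with the mean of its detected probes it changed by 0.30 (limma adjusted p = 0.166). Without control replicate 2 the Hsbp1 adjusted p was 0.0541.

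Among the other small heat shock protein genes, 2 of 3 tested (19.9% of all genes) rose and 0 fell, with a median of 0.97. Cryab, the alpha-B-crystallin gene, had log2 intensities of 10.22, 9.88 and 10.51 on the shChd4 arrays, against 6.29, 6.29 and 7.16 on the control arrays. It rose by 3.62 ± 0.25 (SE; limma adjusted p = 3.36e-06), while Hspb6 changed by 0.23. Hspb2 rose by 0.97, or by 0.33 without background correction, and was detected on 1 of 3 control arrays. Of 9 exchange factors and partners of Hsp70, 1 rose and 1 fell, with a median of -0.10. The riser was Bag3, with 11.82, 11.39 and 11.49 on the shChd4 arrays, against 9.48, 9.60 and 9.82 on the control arrays. The log2 fold change of Bag3 was 1.93 ± 0.17 (SE; limma adjusted p = 1.43e-05). For Cryab and Bag3, as for Hspb8, all shChd4 arrays were above all control arrays. Stub1, a ubiquitin ligase that binds Hsp70, fell by 0.53, near the threshold (limma adjusted p = 0.0464). Its call was lost without shChd4 replicate 1 (0.160, log2 fold change -0.33), control replicate 1 (0.0872), control replicate 2 (0.134) or control replicate 3 (0.0725). The mean of its detected probes (limma adjusted p = 0.265, log2 fold change -0.31) and dropping the detection filter (0.0887) also ended it.

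Of 4 other Hsp70 and Hsp110 genes tested, Hspa2 rose by 0.70 and Hspa4 fell by 0.88. The Hspa4 call was lost without shChd4 replicate 3 (limma adjusted p = 0.0507), and its change was -0.46 without background correction. Hspa2 changed by 0.46 over the mean of its detected probes. Of 9 other Hsp40 genes, Dnajb9, of the endoplasmic reticulum, rose by 1.15, and Dnajb12 fell by 0.45. The Dnajb12 call was lost without shChd4 replicate 1 (0.122), shChd4 replicate 3 (0.0801), control replicate 1 (0.113) or control replicate 2 (0.150). The other 7 did not pass, and the list median was -0.07.

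Of 11 endoplasmic reticulum chaperone genes, 4 (36.4%) rose, against 19.9% of all genes, and 0 fell, against 18.2% of all genes; the median was 0.42. The largest was Serpinh1, the collagen chaperone Hsp47, with 12.88, 12.72 and 12.79 on the shChd4 arrays, against 8.98, 9.59 and 10.11 on the control arrays. Its log2 fold change was 3.24 ± 0.24 (SE; limma adjusted p = 5.17e-06). Dnajb9 and Dnajc3, an inhibitor of stress kinases, rose by 1.15 and 1.07, and Pdia3, a disulfide isomerase, by 0.72. The change of Dnajc3 was 0.68 without background correction. Hspa5, the BiP gene, was detected on 1 array and was not tested.

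Of 15 other Hsp90 genes and co-chaperones, 6 fell, against 18.2% of all genes, 0 rose and 9 did not pass; the median was -0.42, with single genes from -1.02 to 0.39. Fkbp5, a peptidyl-prolyl isomerase of steroid receptor complexes, fell by 1.02 ± 0.20 in log2 units (SE; limma adjusted p = 0.00217), a call it kept in 15 of 15 alternatives. Fkbp4 fell by 0.54, and lost its call without shChd4 replicate 1 (limma adjusted p = 0.0761), shChd4 replicate 3 (0.0614) or control replicate 2 (0.0847). Cdc37, which recruits kinases, fell by 0.63, and lost its call without shChd4 replicate 1 (0.0905), control replicate 1 (0.0814) or control replicate 2 (0.0550). Without background correction Cdc37 was at -0.27. The others were Cdc37l1 (-0.53), Trap1 (-0.44) and the isomerase gene Ppid (-0.41).

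Of 12 mitochondrial chaperones and proteases, 0 rose and 3 (25.0%) fell, against 18.2% of all genes, with a median of -0.29. Dnajc19, a part of the import motor, fell by 0.60, and lost its call without shChd4 replicate 3 (limma adjusted p = 0.0615) or control replicate 1 (0.0624). Grpel2, the nucleotide exchange factor of mitochondrial Hsp70, fell by 0.55, but by 0.17 and with no call without background correction (limma adjusted p = 0.154). It was also lost without shChd4 replicate 1 (0.144), shChd4 replicate 3 (0.0683), control replicate 2 (0.154) or control replicate 3 (0.0575). Trap1, the mitochondrial Hsp90, which is also among the Hsp90 genes above, fell by 0.44, and kept its call without shChd4 replicate 2 but not without any other single array (0.0524 to 0.138). Of 12 CCT chaperonin and prefoldin genes, which fold actin and tubulin, 0 rose and 2 (16.7%) fell, a share below the 18.2% of all genes, with a median of -0.36. The falls were in the prefoldin genes Vbp1 (-0.74) and Pfdn2 (-0.47). Vbp1 was lost without shChd4 replicate 3 (limma adjusted p = 0.111; log2 fold change -0.48), control replicate 1 (0.110) or control replicate 2 (0.0594), and was at -0.32 without background correction (0.0535). Pfdn2 was lost without any single array other than shChd4 replicate 3 (0.0558 to 0.115).

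The last list held heat-inducible genes outside the 10. Of 10 tested, 3 (30.0%, against 19.9% of all genes) rose, namely Serpinh1, Bag3 and P4ha1, while 1 fell (Fkbp4) and 6 did not pass, with a median of -0.19. P4ha1, a collagen prolyl hydroxylase subunit, rose by 0.67, or by 0.28 without background correction, and its limma adjusted p without shChd4 replicate 3 was 0.0523. Among those that did not pass, Stip1, the Hsp70-Hsp90 adaptor, changed by -0.40, Hspe1, the partner of Hspd1, by -0.43, and Chordc1 by 0.25; these genes were named after their values were seen.

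**Figure D4:**
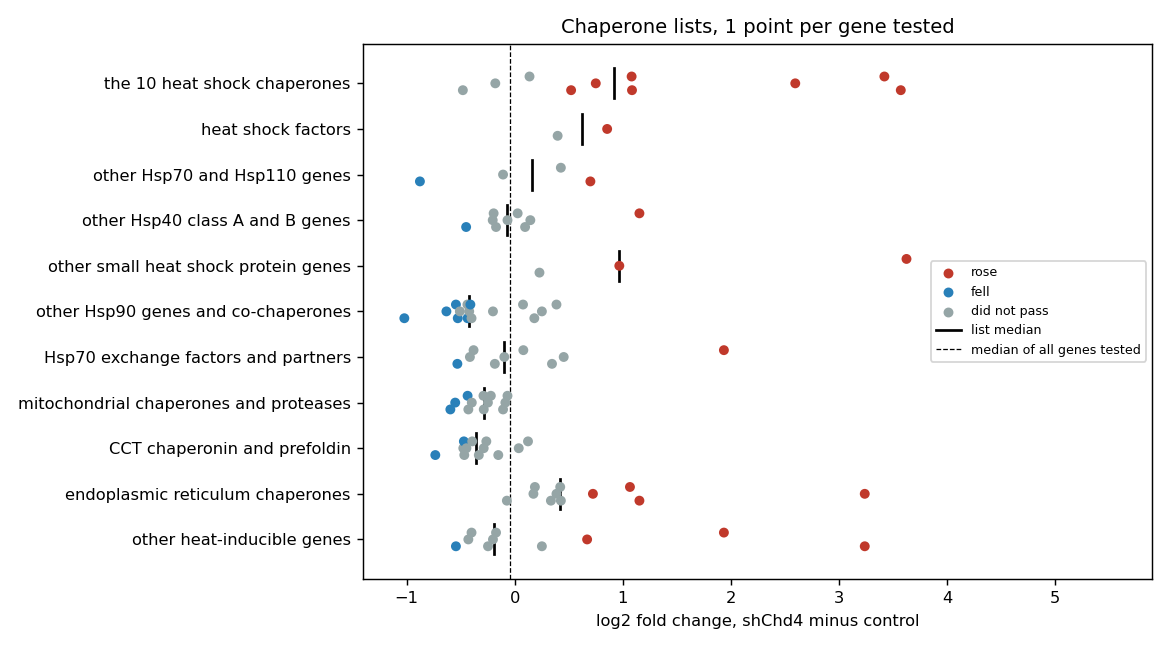
Log2 fold change (shChd4 minus control) of every tested gene in the 10 heat shock chaperones and in 10 related lists, coloured by whether it rose, fell or did not pass; black bars are list medians and the dashed line is the median of all genes tested, -0.05. The 10 genes have a median of 0.92, and the Hsp90 co-chaperone, mitochondrial and CCT lists have medians below 0 with 0 rises.

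Within the groups, the arrays did not share 1 order across the 10 genes. Among the shChd4 arrays, replicate 1 was the highest for 7 of the 10 and replicate 2 the lowest for 6. Of all genes tested, 34%, 33.2% and 32.8% had their lowest shChd4 value on replicates 1, 2 and 3. Such shares were not computed for the highest value or for the control arrays. Among the control arrays, replicate 3 was the highest for 7 and replicate 1 the lowest for 6. The mean of the fibroblast markers was 8.60, 8.36 and 8.66 on shChd4 replicates 1, 2 and 3, and 5.97, 6.40 and 6.43 on control replicates 1, 2 and 3. Hspa8, Hspb1, Hspb8, Dnajb2 and Hsph1 likewise had their lowest control value on replicate 1 and their highest on replicate 3. On the shChd4 side the fibroblast mean was lowest on replicate 2, as were 6 of the 10 genes. It was highest on replicate 3, as were 2 of the 10. Hsp90aa1 and Hspd1 had their highest control value on replicate 1, as did the mean of the ES cell markers (10.60, 10.50 and 10.37 on control replicates 1, 2 and 3). Among the shChd4 arrays the ES cell marker mean was highest on replicate 2 (9.55, 9.91 and 9.46), where Hspa1a, Hspa1b, Hspb8, Dnajb1, Dnajb2 and Hsph1 were lowest and Hspb1 was highest. The part of either cell type in these orders was not tested.

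**Figure D5:**
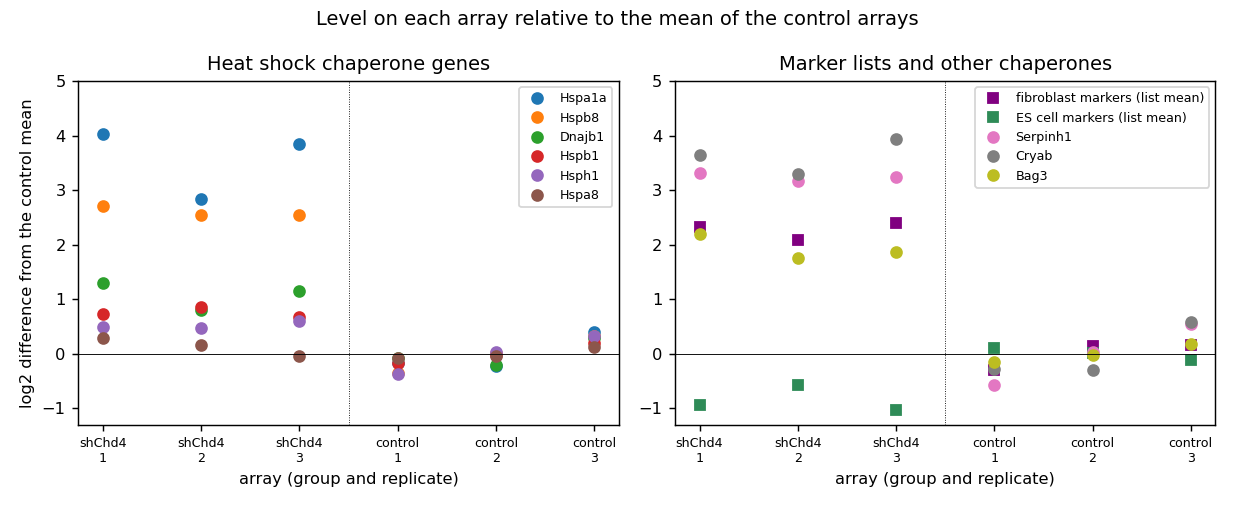
Log2 level on each array minus the mean of the control arrays, for 6 of the 10 genes (left) and for the means of the fibroblast and ES cell marker lists with Serpinh1, Cryab and Bag3 (right); arrays are shown as group and replicate number. Fibroblast markers, Serpinh1, Cryab, Bag3, Hspa1a and Hspb8 all lie well above 0 on the shChd4 arrays, Hspa8 stays near 0, and ES cell markers lie below 0. Hspa1b and Dnajb2, which rose, are not drawn. Neither are Hsp90aa1 and Hspd1, whose log2 fold changes were below 0 and did not pass.

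The genes with profiles nearest to that of Hspa1a over the 6 arrays, by Euclidean distance after centring, were Ccn4 (distance 0.52), Gpr176 (0.54) and Lyz1 (0.58). Ccn4, a secreted matricellular protein, changed by 3.39, the receptor gene Gpr176 by 3.32 and the lysozyme gene Lyz1 by 3.57. Without background correction these changes were 1.97 for Ccn4, 1.64 for Gpr176 and 2.10 for Lyz1, and the control arrays that detected them numbered 2, 1 and 2 of 3.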

How the data were processed

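Arrays were read out as linear intensity in the deposited table, with a detection p-value per probe and array, both named so per the file headers. GenomeStudio is named, without a version, per the submitters' processing notes. The authors' value table, also a linear intensity, has array medians between 115.16 and 115.19, and was tried as a second input. The normexp background step used the detection p-values, with an offset of 16, followed by quantile normalisation and log2 (limma 3.58.1, R 4.3.3). Of the 45281 probes, 34885 have 1 gene symbol, 18 several and 10378 none. Only the first were used, and 34807 of their symbols were taken from RefSeq by Entrez gene identifier, whether or not they differed. Each gene was its brightest probe. Groups were compared with lmFit and eBayes and Benjamini-Hochberg adjustment; SE is the moderated standard error. The steps were tested on simulated arrays. There, rises of 2, 1 and 0.5 log2 units were called in 39, 35 and 7 of 40 genes. Falls of 2 and 1 were called in 34 and 31 of 40, of which 35 of each size passed the filter and were tested. The median estimate for rises of 2 was 1.71. Of 14891 genes in that test 154 were called, 8 of them falsely, so far fewer genes changed than in the real arrays. Promoter windows were searched on both strands. The genes named by rule are the 10 members, Chd4, Hsp90ab1, Hspa5, Hsf1, Hsf2, up to 3 genes of smallest p per list, and the 3 nearest in profile to the member with the largest change. Pdia3, Cdc37l1, Ppid, Dppa5a, Sox7 and the named fibroblast markers other than Lum fall outside this rule, as do Stip1, Hspe1 and Chordc1. The members and lists were chosen with earlier results of these data known. Alternatives changed background, scaling, filter, weights, probe choice or arrays. Arrays give no read depth, and 3 per group limits precision. RefSeq promoter windows of Hspa8 and Hsp90aa1 were not analysed here.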

Additional observations from a re-analysis of the deposited data

How the results depend on the processing

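The rises of Hspb8, Hspb1, Dnajb1 and Dnajb2 passed the threshold in every alternative that tested them (15 each). Hspa1a passed in 14 and Hspa1b in 11, again all that tested them. These passes rest on control signals mostly (Hspa1a) or wholly (Hspa1b) below detection, and do not show that a measured size held. Hspa1b was not tested without any 1 of the shChd4 arrays or with genes detected on all 6 arrays, where too few detections remained. Hspa8 was -0.072 with median scaling, against 0.14; the cause was not tested. The number of the 10 genes that fell was 1 in place of 0 with an offset of 50, and 0 to 1 with 1 array left out, the gene being Hsp90aa1. The number that rose was 5 to 7 over all alternatives. The shift of Hspb1 minus Hspb8 ran from -1.94 to -1.70 and that of Dnajb1 minus Dnajb2 from -0.18 to 0.21. The shift of Hspa1b minus Hspa8 was 1.56 without background correction, 1.56 with the authors' values, 2.28 with an offset of 50 and 2.17 with the mean of detected probes, against 3.28, all resting on Hspa1b control signals not above background. With 1 array left out, 13 to 21 of the related chaperone genes changed and 4 to 11 fell, in a test with fewer arrays. Median scaling also ended the calls of Dnajb12, Cdc37, Grpel2 and Vbp1. Dropping the detection filter also ended those of Hspa4, Cdc37, Grpel2 and Vbp1. All genes called ranged from 2803 to 3900. Signal near background limits the sizes for Hspa1a and Hspa1b. No paired analysis was possible because the labels carry no replicate numbers shared between groups.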
